A study of Mus musculus with 8 samples.

Results

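Transcript levels of the transcription factors that direct myeloid lineage choice were followed in mouse bone marrow progenitors at 3, 24 and 72 h after interferon-α (IFNα). The genes were taken by name (Irf8, Cebpa, Cebpb, Cebpd, Spi1, Gfi1, Klf4, Runx1 and Id2), and 8 of the 9 were measured among 27998 features; Cebpd was not analysed here. The samples came from wild-type mice of 12 to 14 weeks, all of the genotype Wildtype, and 16 mice were used. Of these, 4 control mice had received 100 µl of PBS, and 4 mice per later time point had received IFNα once under the skin, at 50000 IU for each 20 g of mouse. Lineage-negative, c-Kit-positive (LK) cells were sorted and enriched with CD150+ CD48- CD34- hematopoietic stem cells (HSCs), so that mature blood cells were depleted and the share of stem cells was set in part by the sort. The 4 mice of a time point were labelled with hashtag antibodies and loaded into the same droplet library. Time point and library therefore cannot be told apart, while the mouse is the replicate.

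Myeloid output depends on a small network of factors whose relative amounts set the fate of a progenitor. PU.1 (encoded by Spi1) and C/EBPα (Cebpa) open the myeloid program in multipotent cells, together with RUNX1. IRF8 and KLF4 direct progenitors towards monocytes and dendritic cells, whereas GFI1 represses monocyte genes and is needed for neutrophil formation. C/EBPβ (Cebpb) takes over granulocyte production under infection or cytokine stress, when C/EBPα is not sufficient. ID2 has no DNA-binding domain and restrains E proteins, the basic helix-loop-helix factors behind lymphoid development. Interferons signal through STAT factors to gamma-activated sites (GAS) and interferon-stimulated response elements (ISREs), and IRF8 itself is a member of the interferon regulatory factor family.

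Promoter sequence was read for the 7 members with an entry in the RefSeq promoter table of GRCm38.p6, in 10 windows of 250 bases before and 50 bases after a start. The letters searched on both strands were GAAANNGAA (ISRE core), TTCNNNGAA (GAS), TTGCNNAA (C/EBP), GAGGAAGT (PU.1) and TGTGGT (RUNX), of which none overlapped another in a member's window. They are held by 8.56%, 8.30%, 10.8%, 3.20% and 16.8% of the 32851 promoter windows in the table. The 250 bases before the first start of Irf8 hold 2 GAS matches, the same stretch of Gfi1 holds 1 C/EBP match, and that of Cebpb holds none of the 5 motifs. These stretches are shown for the gene that fell at 3 and 24 h in 3 classes, the gene with the largest rise at 3 h beyond Id2, and the gene whose fall in the summed cells was not called in any class. Capitals mark the matches, which begin 171 and 153 bases before the start of Irf8 and 143 bases before that of Gfi1.
Irf8 chr8:120736108-120736357, plus strand: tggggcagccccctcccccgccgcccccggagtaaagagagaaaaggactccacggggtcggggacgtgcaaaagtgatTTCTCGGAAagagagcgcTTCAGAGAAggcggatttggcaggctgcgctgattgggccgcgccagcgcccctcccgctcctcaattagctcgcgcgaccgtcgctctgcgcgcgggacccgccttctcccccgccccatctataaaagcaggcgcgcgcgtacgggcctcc
Cebpb chr2:167688665-167688914, plus strand: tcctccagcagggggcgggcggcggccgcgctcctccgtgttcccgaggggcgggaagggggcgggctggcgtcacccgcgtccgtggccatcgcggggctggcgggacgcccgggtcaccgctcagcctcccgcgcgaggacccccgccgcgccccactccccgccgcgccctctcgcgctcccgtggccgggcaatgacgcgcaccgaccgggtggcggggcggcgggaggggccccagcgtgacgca
Gfi1 chr5:107725806-107726055, minus strand: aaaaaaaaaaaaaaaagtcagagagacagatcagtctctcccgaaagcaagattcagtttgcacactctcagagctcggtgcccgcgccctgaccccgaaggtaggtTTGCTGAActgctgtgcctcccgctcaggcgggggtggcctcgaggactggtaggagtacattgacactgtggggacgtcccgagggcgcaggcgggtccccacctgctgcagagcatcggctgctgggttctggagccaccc
In the other windows, matches were found only for Runx1, with 2 RUNX matches 28 and 36 bases after its first start. The windows of Klf4, Cebpa and Id2 hold none of these letters. A match is a stretch of letters, and binding was not measured.

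The count tables were sums of unique molecular identifiers (UMIs). Levels per mouse are given as CPM, a gene's UMIs scaled to the summed UMIs of the genes that passed the count filter. This total was adjusted by a trimmed mean of M values (TMM) factor for each mouse. Pooled levels and the summed class markers with their parts are CPM of all UMIs, without that factor. The 10046 kept cells (2474 in control, then 1661, 3462 and 2449 at the later times) held between 1102706 and 26446327 UMIs per mouse. Median UMIs per cell were lower at 3 h (12017) and 72 h (14763) than in control (18964.5) and at 24 h (18953.5). Control mouse 4 gave 58 cells, against 330 to 1240 in the other mice, so the LMPP-like, monocyte progenitor-like, erythroid progenitor-like and megakaryocyte (MK) progenitor-like tests rest on 3 control mice. This mouse stayed in the neutrophil progenitor-like and HSC-like tests with few counts, such as 7 UMIs of Gfi1 in the former and 6 of Spi1 in the latter. Classes were rebuilt from clusters of the control cells, with the members left out of the clustering. Cluster 5 had 8 of 8 monocyte progenitor markers over 2-fold above the remaining cells and was called monocyte progenitor-like. Cluster 2, led by Ly6c2, Elane and Mpo, and cluster 7, led by S100a8 and S100a9, had 6 and 10 of 11 neutrophil progenitor markers above that fold and were called neutrophil progenitor-like. Clusters 4 and 10, with 7 and 8 of 8 HSC markers, were called HSC-like, and cluster 1, with 5 of 6, was called LMPP-like, for lymphoid-primed multipotent progenitors. The marker lists did not part the clusters fully. Clusters 4 and 10 also had 4 of 6 LMPP markers above that fold, and cluster 3, called MK progenitor-like, had 5 of 8 HSC markers. Of 10 markers of monocytes, macrophages or dendritic cells, clusters 4 and 10 had 5 and 2, and clusters 1 and 7 had 3 each. Of 7 markers of B, T or NK cells, clusters 4 and 10 had 4 and 3, and clusters 1 and 7 had 0 and 2. Cluster 13, with 8 of 8 monocyte progenitor markers, and cluster 14, with 7 of 8 HSC markers, were left unnamed. As a check of the treatment, 12 of 12 interferon-stimulated genes rose at 3 h in all 7 populations, which are the 6 classes and the whole compartment.

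Over the 7 populations, 46 pairs of a member and a population were tested at each time point with edgeR against control. At 3 h, 20 pairs passed an adjusted p of 0.05, with 6 higher and 14 lower. At 24 h, 19 pairs passed, of which 18 were lower, and at 72 h, 11 passed, of which 10 were lower. In the sum over the whole compartment, 6, 7 and 6 of 8 members changed at 3, 24 and 72 h, beside 38.8%, 28.3% and 37.4% of all genes tested. The monocyte progenitor-like class had 5, 3 and 0 of 7 members called, with 17.7%, 7.75% and 6.50% of all genes called. For the neutrophil progenitor-like class these were 3, 5 and 3 of 8 members against 13.1%, 8.78% and 9.08% of genes. In the LMPP-like class, 3, 3 and 1 of 7 members were called, where all genes gave 16.4%, 7.67% and 5.67%. The HSC-like class, with 2, 1 and 1 of 8 called, stood closer to its background of 19.6%, 5.41% and 5.29%. Of the 4 members tested in erythroid progenitor-like cells, 0 were called at any time by edgeR (13.7%, 10.2% and 5.32% of genes), where Cebpa at 3 h (log2 fold change -1.54, SE 0.55, adjusted p = 0.058, and -1.55, adjusted p = 0.104 by DESeq2) was the 1 value with an unadjusted p under 0.05. With a likelihood ratio test (-1.54, adjusted p = 0.0285), library size as the only scaling (-1.73, adjusted p = 0.0173) or no filter on low counts (-1.58, adjusted p = 0.0326) in edgeR it was called. It also passed without control mouse 1 (-1.81, adjusted p = 0.0179) or 3 h mouse 4 (-2.04, adjusted p = 0.0332). In MK progenitor-like cells 1, 0 and 0 of 4 members were called (10.9%, 3.47% and 3.94% of genes), with 1 member, Runx1, at an unadjusted p under 0.05 at 24 h and 0 at 72 h. For the monocyte class at 72 h, where edgeR called 0 of 7, Irf8, Klf4 and Cebpb had an unadjusted p under 0.05, and DESeq2 gave adjusted p of 0.282 for Irf8 and 0.117 for Cebpb. With no filter on low counts these 3 genes were called lower (-0.32, adjusted p = 0.000866 for Irf8, -1.04, adjusted p = 0.000375 for Klf4 and -0.30, adjusted p = 0.0106 for Cebpb). Without 72 h mouse 2, Irf8 (-0.40, adjusted p = 0.0333) and Klf4 (-1.49, adjusted p = 0.0235) passed, as did Klf4 without 24 h mouse 2 (-1.03, adjusted p = 0.0416). The median log2 change of the members in the whole compartment was -0.52, -0.40 and -0.54 at the 3 times, against -0.03, 0.00 and 0.02 over all genes, and that in the monocyte class was -0.21, -0.17 and -0.10.

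**Figure D1:**
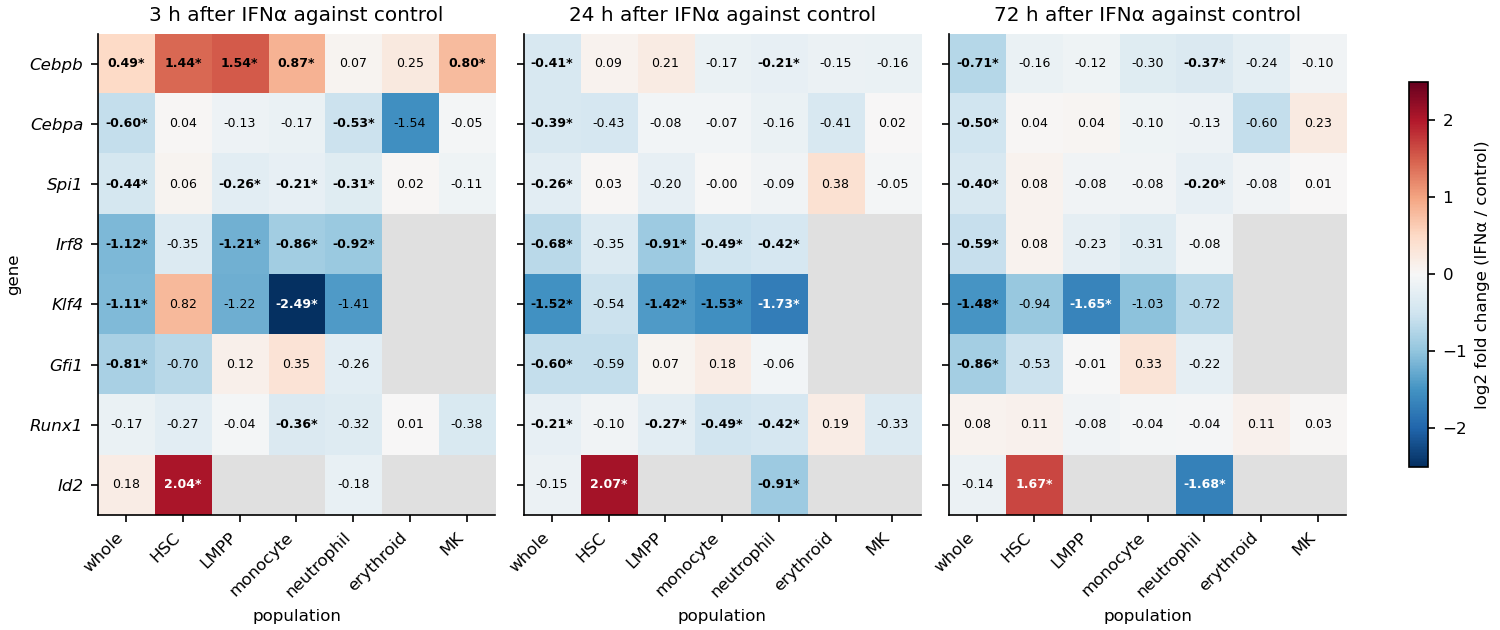
Log2 fold changes (colour and printed value) of the 8 measured members (rows) in each population (columns) at 3, 24 and 72 h after IFNα, with bold values and stars for an adjusted p under 0.05 and grey for pairs that were not tested. Cebpb is higher at 3 h in 5 of 7 populations, while Irf8 is lower in the myeloid and LMPP-like classes at 3 and 24 h. Klf4 is lower in these classes at 24 h and, of them, in the monocyte class at 3 h, and at 72 h most of the called values are in the whole compartment.

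Irf8, the factor of monocyte and dendritic cell fate (chr8:120736358-120756694, plus strand, GRCm38), fell at 3 and 24 h in the LMPP-like, monocyte and neutrophil progenitor-like classes. Monocyte progenitor-like cells of the control mice were at 307, 320.0 and 276 CPM, and the mice at 3 h at 159.7, 224, 133 and 168 CPM. All 4 mice at 3 h were below every control mouse (log2 fold change -0.86, SE 0.12, adjusted p = 1.16e-06, 1.82-fold lower). At 24 h the 4 mice were at 209, 199, 217 and 234 CPM, again below every control (log2 fold change -0.49, SE 0.10, adjusted p = 0.00114), although DESeq2 did not call this fall (-0.48, adjusted p = 0.113). At 72 h they ranged from 153 to 283 CPM and overlapped the controls (log2 fold change -0.31, adjusted p = 0.0813).

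In LMPP-like cells, which lie upstream of the committed classes, Irf8 stood at 167, 228 and 201 CPM in the 3 control mice and at 93.9, 71.6, 73.4 and 107 CPM at 3 h. The groups did not overlap (log2 fold change -1.21, SE 0.15, adjusted p = 5.64e-08), and a non-overlapping fall was also seen at 24 h, from 87.0 to 123 CPM (log2 fold change -0.91, SE 0.11, adjusted p = 3.88e-07). In the neutrophil progenitor-like class, control mice had 128, 114, 126 and 171 CPM and mice at 3 h 58.7, 33.2, 71.8 and 85.9 CPM, again without overlap (log2 fold change -0.92, SE 0.20, adjusted p = 0.000739). At 24 h the class was at 74.3, 94.4, 140.1 and 72.0 CPM, where mouse 3 lay inside the control range. That call (log2 fold change -0.42, SE 0.13, adjusted p = 0.0304) was lost without any one of control mice 1 and 3 or 24 h mice 1, 2 and 4 (values -0.43 to -0.28, adjusted p 0.0698 to 0.215), while it was larger without 24 h mouse 3 (-0.63, adjusted p = 8.78e-05). DESeq2 did not call it (-0.46, adjusted p = 0.437). HSC-like cells had 7.64 to 44.9 CPM in control and no called change at 3, 24 or 72 h (log2 fold changes -0.35, -0.35 and 0.08, SE 0.39, 0.33 and 0.32).

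The share of cells with Irf8 was compared after each cell was thinned to 5000 UMIs. In monocyte progenitor-like cells the median share over mice was 64.6% in control, 43.5% after 3 h, 52.3% after 24 h and 59.2% after 72 h. Unthinned, the pooled shares were 84.4%, 73.4%, 82.1% and 85.3%. Neutrophil progenitor-like cells went from 30.7% to 11.9% at 3 h and were at 28.9% and 30.2% later, where the unthinned shares were 48.8%, 36.3%, 49.3% and 50.0%. The erythroid progenitor-like class, which should lack the gene, gave 1.06% in control after thinning (unthinned 5.14%, and 0.813% at 3 h), so the shares in both myeloid classes lay above this background. Median depths in control were 31043 UMIs per cell for the monocyte, 35361 for the neutrophil and 26297 for the erythroid progenitor-like cells. These shares and the sums in CPM thus moved in the same direction at 3 h.

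Klf4, which acts with IRF8 in monocyte formation (chr4:55527143-55532466, minus strand), had low counts and the steepest called fall. Monocyte progenitor-like cells of the control mice held 25.8, 22.4 and 24.98 CPM, and those at 3 h 7.31, 1.81, 3.41 and 4.21 CPM. Every mouse at 3 h lay below every control (log2 fold change -2.49, SE 0.51, adjusted p = 0.000392, 5.63-fold lower). At 24 h the values were 2.33, 3.09, 15.9 and 13.8 CPM (log2 fold change -1.53, SE 0.32, adjusted p = 0.00108), with 2 low and 2 intermediate mice, all below control, and DESeq2 did not call this fall (-1.47, adjusted p = 0.251). At 72 h they spread from 4.13 to 21.8 CPM and missed the threshold (log2 fold change -1.03, adjusted p = 0.0871), although all 4 mice were below the controls.

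In neutrophil progenitor-like cells, control mice had 12.5, 6.42, 10.2 and 32.1 CPM of Klf4, and the mice at 24 h had 3.45, 2.58, 5.68 and 1.63 CPM, with no overlap (log2 fold change -1.73, SE 0.37, adjusted p = 0.00122). At 3 h, 2 of the 4 mice had no Klf4 UMI and the class was not called (log2 fold change -1.41, SE 0.59, adjusted p = 0.119), a depth at which 102 cells were left in the class. It was called without control mouse 2 (-1.66, adjusted p = 0.0478) or 3 h mouse 4 (-2.66, adjusted p = 0.0274). LMPP-like cells were at 5.91, 6.42 and 10.1 CPM in control and 3.91, 6.22, 2.37 and 1.23 CPM at 3 h, where the value was not called (log2 fold change -1.22, SE 0.46, adjusted p = 0.0702). They had 2.55, 2.54, 4.53 and 1.97 CPM at 24 h and 2.44, 3.33, 1.05 and 2.70 CPM at 72 h. Both later groups lay below all controls (log2 fold changes -1.42 and -1.65, SE 0.34 and 0.40, adjusted p = 0.00461 and 0.00766). The first of these calls was lost without control mouse 3 (-1.15, adjusted p = 0.0986) and the second without control mouse 3 (-1.38, adjusted p = 0.0934). In HSC-like cells Klf4 was not called, with 5.51 to 9.64 CPM in control and 4.95 to 19.1 CPM at 3 h (log2 fold change 0.82, adjusted p = 0.147). The change of Klf4 at 3 h was lower than in HSC-like cells in both the monocyte class (difference of the log2 changes -3.39, SE 0.57, adjusted p = 5.46e-05) and the neutrophil class (-2.34, SE 0.56, adjusted p = 0.00591).

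Klf4 is also an immediate early gene, and a list of 12 genes that respond to handling of tissue was read beside it. In monocyte progenitor-like cells 17.7% and 7.75% of all genes were called at 3 and 24 h. Of the 10 tested genes of the list, 4 fell and 1 rose there at 3 h, and 4 fell at 24 h. Among them, Fosb fell from 35.5 ± 15.6 to 9.11 ± 5.01 CPM (SD, n = 3 and 4, log2 fold change -1.83, SE 0.37, adjusted p = 0.000273) and the heat shock gene Hspa1b from 31.3 ± 19.1 to 0.739 ± 0.994 CPM (SD, n = 3 and 4, log2 fold change -5.04, SE 1.17, adjusted p = 0.00161), while Junb rose from 57.8 ± 13.4 to 90.0 ± 10.2 CPM (SD, n = 3 and 4, log2 fold change 0.65, SE 0.16, adjusted p = 0.00369). In neutrophil progenitor-like cells 3 of 10 fell at 3 h and 4 at 24 h, in LMPP-like cells 4 of 10 fell and 1 rose at 3 h, and in HSC-like cells 6 of 9 fell at 3 h. All genes gave 13.1% and 8.78% in the neutrophil class at 3 and 24 h. At 3 h they gave 16.4% in the LMPP-like and 19.6% in the HSC-like class. The part of these genes' shared early response in the values of Klf4 was not tested.

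Cebpb, the factor of emergency granulopoiesis (chr2:167688915-167690418, plus strand), rose at 3 h in every tested class except the neutrophil and erythroid progenitor-like ones, and was not higher in any of them at 24 h. In HSC-like cells, control mice had 67.8, 63.5, 78.2 and 45.9 CPM and mice at 3 h 188, 198, 203 and 155 CPM. Every mouse at 3 h exceeded every control (log2 fold change 1.44, SE 0.11, adjusted p = 4.66e-13, 2.71-fold higher). LMPP-like cells went from 66.2, 79.1 and 89.5 CPM in control to 256, 202, 235 and 209 CPM (log2 fold change 1.54, SE 0.12, adjusted p = 7.33e-13, 2.9-fold higher). In monocyte progenitor-like cells the values were 194, 168 and 192 CPM in control and 378, 416, 299.6 and 286 CPM at 3 h (log2 fold change 0.87, SE 0.10, adjusted p = 1.5e-08). MK progenitor-like cells had 39.2, 41.5 and 33.9 CPM in control and 89.9, 57.4, 52.6 and 74.7 CPM at 3 h (log2 fold change 0.80, SE 0.18, adjusted p = 0.00168). In all of these classes the groups did not overlap.

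By 24 h the gene was no longer called in the HSC-like, LMPP-like, monocyte and MK progenitor-like classes, where the log2 fold changes were 0.09, 0.21, -0.17 and -0.16. The neutrophil progenitor-like class, with 201, 214, 229.8 and 260.4 CPM in control, was at 230.3, 244, 229 and 213 CPM at 3 h, within the control range (log2 fold change 0.07, SE 0.08, adjusted p = 0.651). It then fell to 196, 177, 200.2 and 182 CPM at 24 h (log2 fold change -0.21, SE 0.06, adjusted p = 0.0204) and 165, 174, 162 and 177 CPM at 72 h (log2 fold change -0.37, SE 0.07, adjusted p = 0.000182). The call at 24 h was lost without any one of control mouse 3 or 24 h mice 2 and 4 (values -0.19 to -0.17, adjusted p 0.0787 to 0.144) and with DESeq2 (-0.20, adjusted p = 0.124). In cluster 2 of this class alone, neither the value at 24 h (-0.04, adjusted p = 0.803) nor that at 72 h (-0.21, adjusted p = 0.0842) was called. Control levels of Cebpb were 188 ± 9.25 CPM (SD, n = 3) in cluster 2 and 266 ± 33.4 CPM (SD, n = 3) in cluster 7, which made up less of the class after treatment. The rise at 3 h was larger in the monocyte than in the neutrophil class (difference of the log2 changes 0.79, SE 0.12, adjusted p = 3.91e-05), and smaller in both than in HSC-like cells (-0.60, SE 0.13, adjusted p = 0.00173 for the monocyte class, and -1.40, SE 0.12, adjusted p = 6.04e-14 for the neutrophil class). The difference between the monocyte and HSC-like classes was lost without any one of control mouse 1 or 3 h mouse 3 (values -0.49 to -0.40, adjusted p 0.0627 to 0.13).

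Thinned to 5000 UMIs, the median share of HSC-like cells with a Cebpb UMI was 27.7% in control, 48.7% after 3 h, 27.3% after 24 h and 23.4% after 72 h. The ranges over mice were 24.1 to 34.4% in control and 43.3 to 53.3% at 3 h, so that more cells carried the transcript in all 4 treated mice. LMPP-like cells showed 30.3%, 63.6%, 37.2% and 30.2% at the 4 times. Unthinned, the pooled shares in control and at 3 h were 48.0% and 67.1% of HSC-like cells and 64.3% and 88.3% of LMPP-like cells. Erythroid progenitor-like cells, with the lowest control level of the classes, had 11.5% in control and 17.5% at 3 h. HSC-like cells at 3 h also showed a higher summed level of the monocyte progenitor markers, with a median of 452 CPM against 87.3 CPM in control. Most of it came from Ms4a6c and Ctss, while Csf1r, F13a1 and Ccr2 were at or below 5.42 CPM in every mouse at 3 h and Ly86 at or below 21.4 CPM. The part of this shift in the value of Cebpb was not tested.

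**Figure D2:**
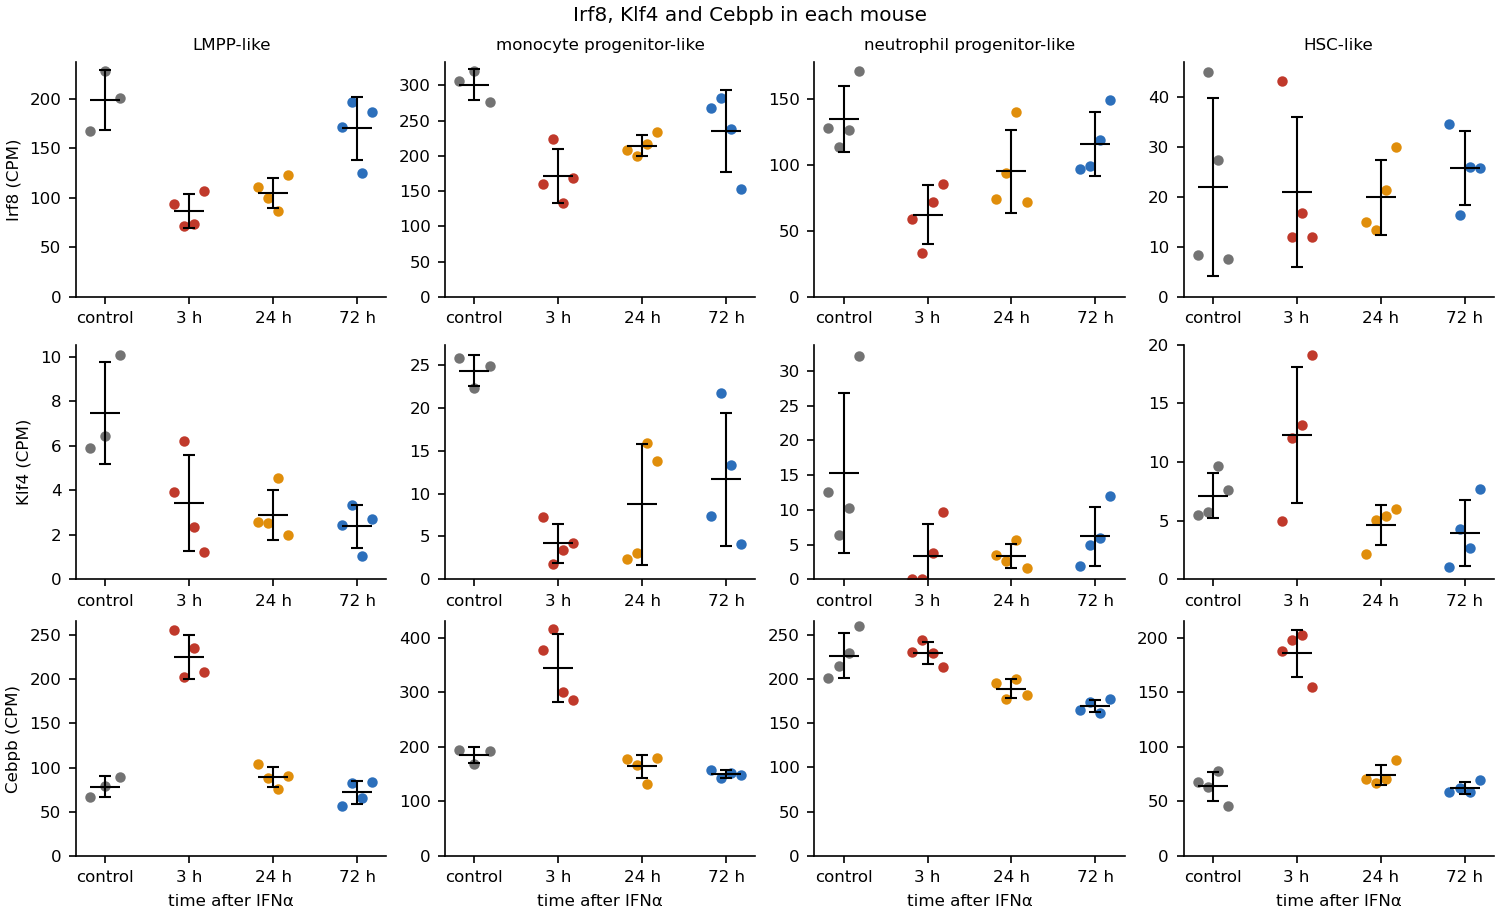
CPM of Irf8, Klf4 and Cebpb (rows, linear axes from 0) against time in 4 classes, where points are single mice and bars give the mean ± SD (n = 3 or 4). In monocyte progenitor-like cells Irf8 lies at 133 to 224 CPM at 3 h, below all controls, while Cebpb lies at 286 to 416 CPM, above all controls.

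The balance between factors within a class is given here as the difference of 2 genes' log2 CPM in each mouse. In monocyte progenitor-like cells, Irf8 minus Gfi1 was 3.60 ± 0.45 in control (SD, n = 3), 2.44 ± 0.43 after 3 h, 2.90 ± 0.17 after 24 h and 2.86 ± 0.50 after 72 h (n = 4 each). The mice at 3 h were all below the controls. Cebpb minus Cebpa in the same cells was 0.90 ± 0.21, 1.95 ± 0.21, 0.80 ± 0.12 and 0.70 ± 0.28, with all mice at 3 h above the controls. In neutrophil progenitor-like cells it was 1.13 ± 0.08 in control and 1.73 ± 0.19 at 3 h, again without overlap. Irf8 minus Gfi1 in these cells was 1.05 ± 1.13 in control, then -0.26 ± 1.02, 0.19 ± 0.48 and 0.66 ± 0.49, and the groups overlapped. The control values ran from 0.28 to 2.73, where Gfi1 in control mouse 4 rested on 7 UMIs (24.97 CPM, against 82.1 to 93.2 CPM in the other controls). These balances were read from genes tested above and carry no test of their own.

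Cells with both Irf8 and its antagonist Gfi1 were counted after thinning to 5000 UMIs. Of 463 neutrophil progenitor-like control cells, 14 (3.02%) had both, where independence of the 2 genes in the pooled cells gives 8.63%. At 3 h, 0 of 102 cells had both, which allows a share of up to 2.94%, and at 24 and 72 h, 12 of 298 (4.03%) and 7 of 182 (3.85%) did. In the monocyte class, 17 of 250 control cells (6.80%), 6 of 154 at 3 h (3.90%), 14 of 368 at 24 h (3.80%) and 18 of 176 at 72 h (10.2%) had both. There the share expected from independence was 7.73% in control, close to the count. The neutrophil class joins 2 clusters that differ in both genes, as described next, so the counts are a description of mixed cells.

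Within the neutrophil progenitor-like class of the control mice, cluster 2 had mean levels of 183 CPM for Irf8 and 59.8 CPM for Gfi1, while cluster 7, which carries S100a8 and S100a9, had 21.5 and 135 CPM. Cluster 7 made up 38.9% of the class in control and 17.6%, 19.5% and 18.7% at 3, 24 and 72 h, so the class had more of the Irf8-rich cells after treatment. Cluster 2 was therefore tested alone, with 3 control mice. At 3 h, Irf8 (log2 fold change -1.27, SE 0.17, adjusted p = 2.25e-07), Klf4 (log2 fold change -1.67, SE 0.53, adjusted p = 0.029), Runx1 (log2 fold change -0.47, SE 0.15, adjusted p = 0.0366) and Spi1 (log2 fold change -0.24, SE 0.07, adjusted p = 0.02857) fell in cluster 2. Cebpb rose there (log2 fold change 0.25, SE 0.08, adjusted p = 0.0382), while it was not called in the class as a whole. Whether cluster 2 and the class differ was not tested. At 24 h Irf8 (log2 fold change -0.71, SE 0.11, adjusted p = 9.67e-06), Klf4 (log2 fold change -2.12, SE 0.35, adjusted p = 2.4e-05) and Runx1 (log2 fold change -0.51, SE 0.10, adjusted p = 0.000533) fell, whereas Cebpb did not pass (-0.04, adjusted p = 0.803). At 72 h edgeR called no member in cluster 2, where Irf8, Klf4, Cebpb and Spi1 had an unadjusted p under 0.05 (adjusted p 0.0842 for Cebpb and 0.105 for Irf8). The 3 comparisons of cluster 2 called 12.0%, 9.40% and 7.39% of all genes. Cluster 7 had too few cells for a test at 3 h, and at 24 and 72 h edgeR called no member there, with Cebpb closest (-0.50, adjusted p = 0.0564 at 72 h) and unadjusted p under 0.05 for Cebpb at both times and for Runx1 at 24 h. Its tests rest on 3 control mice, 4 mice at 24 h and only 2 mice at 72 h.

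Gfi1, the repressor of monocyte genes in neutrophil progenitors (chr5:107716657-107726036, minus strand), fell in the sum over the whole compartment and was not called in any class. The control mice were at 32.9, 36.6, 32.9 and 15.7 CPM, and the treated mice at 23.8, 19.4, 17.5 and 15.9 CPM after 3 h, 21.7, 18.2, 23.3 and 24.7 CPM after 24 h and 18.7, 16.5, 21.1 and 16.4 CPM after 72 h. The low control value is mouse 4, the mouse with 58 cells, and the other 3 controls lay above every treated mouse (log2 fold changes -0.81, -0.60 and -0.86, SE 0.14, 0.11 and 0.12, adjusted p = 6.91e-05, 0.000453 and 1.32e-05). In neutrophil progenitor-like cells the treated mice overlapped the controls at every time, with log2 fold changes of -0.26, -0.06 and -0.22 (SE 0.17, 0.11 and 0.13). Monocyte progenitor-like cells had 0.35, 0.18 and 0.33 (adjusted p = 0.234, 0.57 and 0.316). Leaving out control mouse 3 made the value at 3 h in the monocyte class a called rise (0.56, adjusted p = 0.0489). In HSC-like cells Gfi1 was called lower at 3 h with library size as the only scaling (-0.91, adjusted p = 0.0241) and at 24 h without 24 h mouse 3 (-0.87, adjusted p = 0.0435). The share of neutrophil progenitor-like cells, in which Gfi1 is highest, went from 17.2 to 20.2% of a mouse's cells in control to between 4.64 and 8.48% at 3 h, 6.77 and 10.5% at 24 h and 5.11 and 10.3% at 72 h. The share of HSC-like cells, 14.7 to 20.7% in control, was 27.0 to 37.5%, 22.2 to 26.1% and 28.4 to 31.9% at the 3 times, above all controls. In such sums, fewer cells of a type and less RNA per cell cannot be told apart.

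Cebpa, needed for the step from multipotent to granulocyte-monocyte progenitors (chr7:35119293-35121928, plus strand), also fell in the whole compartment. Its values there were 55.4, 69.7, 66.8 and 75.7 CPM in control, 47.9, 38.2, 41.5 and 44.2 CPM after 3 h, 51.6, 45.8, 44.0 and 56.0 CPM after 24 h and 41.8, 46.0, 54.2 and 40.9 CPM after 72 h. The groups at 3 and 72 h lay below all controls, and 3 of 4 mice did at 24 h (log2 fold changes -0.60, -0.39 and -0.50, SE 0.11, 0.09 and 0.10, adjusted p = 9.13e-05, 0.00271 and 0.000292). Within classes a single call was made, in neutrophil progenitor-like cells at 3 h, from 90.0, 102, 97.7 and 125 CPM in control to 64.7, 78.2, 58.2 and 73.4 CPM (log2 fold change -0.53, SE 0.13, adjusted p = 0.00422). It was lost without 3 h mouse 3 (-0.45, adjusted p = 0.0564), and in cluster 2 alone it missed the threshold (log2 fold change -0.42, SE 0.16, adjusted p = 0.0767). In LMPP-like and monocyte progenitor-like cells the log2 fold changes at the 3 times lay between -0.17 and 0.04, with SE between 0.10 and 0.13.

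Spi1, which encodes PU.1 (chr2:91082390-91115756, plus strand), had small changes with small errors. Over the whole compartment it was at 212, 222, 206 and 196 CPM in control, 166, 145, 157 and 155 CPM after 3 h, 183, 181, 162 and 179.7 CPM after 24 h and 158, 156, 176 and 151 CPM after 72 h. Every treated mouse was below every control (log2 fold changes -0.44, -0.26 and -0.40, SE 0.05 at each to 2 decimals, adjusted p = 8.69e-07, 0.000624 and 3.53e-06). In the neutrophil class it fell at 3 h from 320.2, 336, 317 and 325 to 275, 256, 281 and 233 CPM (log2 fold change -0.31, SE 0.07, adjusted p = 0.000811). At 72 h it was at 282, 273, 294 and 274 CPM (log2 fold change -0.20, SE 0.06, adjusted p = 0.0181), a call lost without any one of control mouse 2 or 72 h mice 1, 2 and 4 (values -0.20 to -0.18, adjusted p 0.06 to 0.1), with DESeq2 (-0.19, adjusted p = 0.0606) and in cluster 2 of this class alone (-0.13, adjusted p = 0.264). At 3 h it also fell in LMPP-like cells (log2 fold change -0.26, SE 0.08, adjusted p = 0.0212) and in monocyte progenitor-like cells (log2 fold change -0.21, SE 0.07, adjusted p = 0.0399). The first was lost without any one of control mouse 2 or 3 h mice 1 and 3 (values -0.26 to -0.20, adjusted p 0.0588 to 0.135), and the second without any one of control mice 1 and 3, 3 h mice 3 and 4, 24 h mice 1 and 3 or 72 h mouse 1 (values -0.20 to -0.17, adjusted p 0.0561 to 0.188). Clustering with all variable genes also ended the first (-0.23, adjusted p = 0.0627), and DESeq2 (-0.20, adjusted p = 0.0617), each time point fitted alone (-0.21, adjusted p = 0.0599) and labels passed on without batch correction (-0.18, adjusted p = 0.0714) each ended the second. In HSC-like cells the 3 log2 fold changes were 0.06, 0.03 and 0.08 (SE 0.10, 0.09 and 0.10), and the change at 3 h was lower in the neutrophil class than there (-0.39, SE 0.12, adjusted p = 0.0409), a difference lost without any one of control mice 1 and 2 or 3 h mice 2, 3 and 4 (values -0.42 to -0.34, adjusted p 0.0843 to 0.169).

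**Figure D3:**
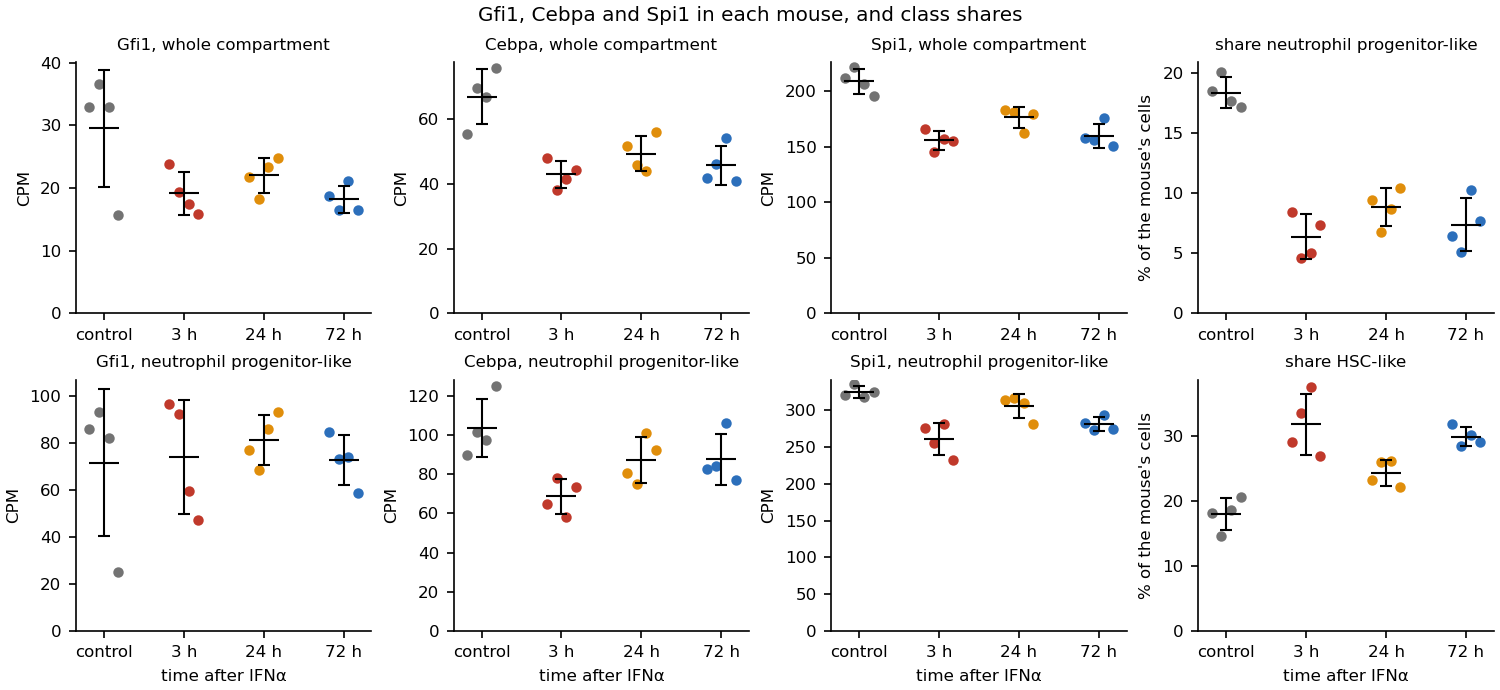
CPM of Gfi1, Cebpa and Spi1 in the whole compartment (upper row) and in neutrophil progenitor-like cells (lower row), with the shares of neutrophil progenitor-like and HSC-like cells in percent of a mouse's cells (right), where points are single mice and bars the mean ± SD (n = 4). Gfi1 in neutrophil progenitor-like cells overlaps between all groups, while the share of these cells is 17.2 to 20.2% in control and at most 10.5% after treatment.

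Irf8, Klf4 and Cebpb were also summed over the whole compartment, where Irf8 fell at all 3 times (log2 fold changes -1.12, -0.68 and -0.59, SE 0.10, 0.09 and 0.09). At 72 h the mice were at 81.2, 84.4, 76.5 and 72.1 CPM against 123, 125, 107 and 115 CPM in control, although no class was called at that time. Klf4 fell at all times as well (-1.11, -1.52 and -1.48, SE 0.27, 0.22 and 0.24), from 8.12 to 14.8 CPM in control to 2.51 to 5.16 CPM at 72 h. Cluster 13, an unnamed cluster of 35 control cells, held 124 of the 620 control UMIs of Klf4. At 3, 24 and 72 h it had 6, 5 and 6 cells, with 0 of 112, 10 of 293 and 8 of 171 UMIs of Klf4. Cebpb rose at 3 h from 126, 122, 133 and 119 to 201, 160.0, 176 and 173 CPM (log2 fold change 0.49, SE 0.07, adjusted p = 2.56e-06). It was below control at 24 h (102, 89.4, 85.8 and 104 CPM, log2 fold change -0.41, SE 0.06, adjusted p = 5.24e-05) and 72 h (75.2, 75.4, 80.6 and 78.7 CPM, log2 fold change -0.71, SE 0.07, adjusted p = 3.46e-08), without overlap at any time. The class shares changed as well, as given with Gfi1, so cell mix and RNA per cell cannot be told apart in the sums of these 3 genes. With library size as the only scaling, the median log2 change of all genes at 3 h moved from between -0.04 and -0.02 to between -0.24 and -0.16 over the 7 populations, and 27 in place of 20 pairs of a member and a population were called at 3 h, 6 of them higher as before.

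Runx1, required for blood stem cell emergence and for later myeloid maturation (chr16:92601466-92826149, minus strand), fell at 24 h in 3 classes. The monocyte class was at 98.1, 113 and 113 CPM in control and 75.4, 81.4, 73.4 and 75.4 CPM at 24 h, with no overlap (log2 fold change -0.49, SE 0.09, adjusted p = 0.00052). At 72 h the mice were at 96.5 to 121 CPM. The fall at 3 h (log2 fold change -0.36, SE 0.12, adjusted p = 0.0281) was lost without any one of control mice 2 and 3 or 3 h mice 3 and 4 (values -0.38 to -0.22, adjusted p 0.0518 to 0.223). Neutrophil progenitor-like cells were at 57.9, 59.9, 67.4 and 42.8 CPM in control and 48.2, 42.8, 45.9 and 46.7 CPM at 24 h (log2 fold change -0.42, SE 0.10, adjusted p = 0.00281), where control mouse 4 was as low as the treated mice. DESeq2 called the fall neither there (-0.39, adjusted p = 0.0545) nor in LMPP-like cells (-0.26, adjusted p = 0.0555). In LMPP-like cells the fall was small (log2 fold change -0.27, SE 0.08, adjusted p = 0.0219) and lost without any one of control mice 2 and 3 or 24 h mouse 3 (values -0.28 to -0.21, adjusted p 0.0514 to 0.183). The sum over the whole compartment was at 82.2, 92.3, 93.6 and 109.6 CPM in control and 80.1, 80.7, 74.7 and 78.5 CPM at 24 h (log2 fold change -0.21, SE 0.06, adjusted p = 0.0155), a call lost without control mouse 3 (-0.20, adjusted p = 0.0592). MK progenitor-like cells were not called at 3 h (-0.38, adjusted p = 0.0711) or 24 h (-0.33, adjusted p = 0.0940). Nor were HSC-like cells (-0.27, adjusted p = 0.0791) or the whole compartment (-0.17, adjusted p = 0.0550) at 3 h. Each of these 4 values was called lower with library size as the only scaling. The fall at 24 h was larger in monocyte progenitor-like than in HSC-like cells (-0.42, SE 0.11, adjusted p = 0.0352), a difference lost without any one of control mice 1 and 2, 24 h mice 1, 3 and 4 or 72 h mouse 3 (values -0.42 to -0.38, adjusted p 0.0537 to 0.205).

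Id2, an inhibitor of E proteins (chr12:25093799-25097140, minus strand), had few counts and moved in opposite directions in the HSC-like and neutrophil classes. HSC-like cells had 6.61, 2.85, 2.68 and 7.64 CPM in control, 12.4, 12.1, 18.2 and 27.5 CPM after 3 h, 11.3, 15.7, 7.53 and 35.0 CPM after 24 h and 16.9, 14.6, 9.88 and 12.4 CPM after 72 h. The groups at 3 and 72 h exceeded all controls, and 3 of 4 mice did at 24 h (log2 fold changes 2.04, 2.07 and 1.67, SE 0.50, 0.44 and 0.48, adjusted p = 0.00246, 0.00181 and 0.0296). The call at 72 h was lost without any one of control mice 2 and 3 or 72 h mice 1 and 2 (values 1.41 to 1.64, adjusted p 0.0559 to 0.171). The UMIs were concentrated in few cells. Cells with 4 or more Id2 UMIs numbered 0 of 427 in control, then 2 of 544, 9 of 849 and 8 of 738, and held 38 of 81, 147 of 207 and 90 of 117 Id2 UMIs at the 3 treated times. With these cells left out, the pooled level was 4.42 CPM in control, then 8.42, 5.39 and 3.17 CPM, so the pooled excess over control was mostly in them at 3 h, where they were 2 cells, and at 24 h, and wholly at 72 h. By cluster, the pooled level in cluster 10 was 5.54 CPM in control and 36.5, 40.3 and 47.1 CPM at the 3 times, and in cluster 4 it was 3.87, then 6.97, 9.62 and 1.89 CPM.

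Of these cells, 6 of 9 at 24 h and 5 of 8 at 72 h also carried a UMI of Gzmb or Scin, genes that lead the unnamed cluster 6, against 0 of 2 at 3 h. Without all cells with such a UMI, the rise of Id2 in HSC-like cells was not called at 24 h (1.41, adjusted p = 0.0764) or 72 h (0.94, adjusted p = 0.374), and was at 3 h (1.97, adjusted p = 0.00313). The summed markers of monocytes, macrophages and dendritic cells, of which H2-Aa is one, also had a higher median in HSC-like cells at 24 h (151 CPM) than in control (51.0 CPM), at 3 h (44.0 CPM) and at 72 h (55.8 CPM). Cells with a UMI of Gzmb or Scin numbered 8 of 427 HSC-like cells in control, then 10 of 544, 27 of 849 and 26 of 738. Leaving them out cannot tell cells of another type from HSC-like cells that carry these genes after treatment. The part of other cells in these values was not tested.

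**Figure D4:**
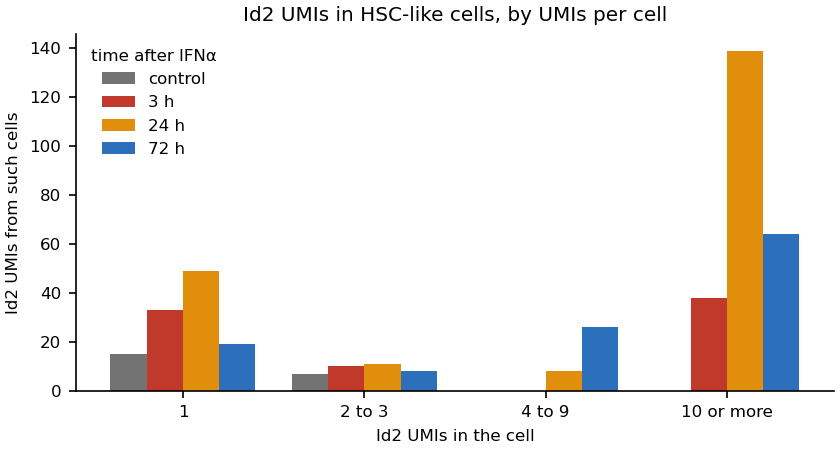
Number of Id2 UMIs (linear axis from 0) in HSC-like cells, pooled over mice, by how many Id2 UMIs a cell held, for control and the 3 times after IFNα. Control cells held at most 3 each, while 139 of 207 UMIs at 24 h and 64 of 117 at 72 h came from cells with 10 or more.

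In neutrophil progenitor-like cells Id2 had 5.11, 9.62, 6.39 and 3.57 CPM in control, 5.91, 3.22, 2.37 and 3.53 CPM at 24 h and 1.91, 4.97, 1.08 and 2.12 CPM at 72 h. It fell at both times (log2 fold change -0.91, SE 0.29, adjusted p = 0.0372, and log2 fold change -1.68, SE 0.41, adjusted p = 0.005 at 72 h). The first call was lost with each time point fitted alone (-0.91, adjusted p = 0.0506) and without any one of control mice 2 and 3 or 24 h mice 2, 3 and 4 (values -0.97 to -0.62, adjusted p 0.0655 to 0.281), and the second without 72 h mouse 3 (-1.37, adjusted p = 0.0641). Within the class Id2 was higher in cluster 7 (13.2 CPM in control) than in cluster 2 (3.42 CPM), and cluster 7 made up a smaller share after treatment, as given above. In cluster 2 the mean was 4.41, 3.00 and 2.19 CPM at 3, 24 and 72 h (n = 4 each). In cluster 7 it was 6.46 CPM at 24 h (n = 4) and 2.71 CPM at 72 h (n = 2). Id2 was not tested within either cluster, nor was the part of the changed mix in the falls of the class. The change of Id2 was lower than in HSC-like cells at all 3 times in the neutrophil class (differences -2.28, -3.05 and -3.29, adjusted p = 0.00524, 1.22e-06 and 6.09e-05). For the monocyte class these were -2.75, -3.34 and -3.17 (adjusted p = 0.0116, 0.00029 and 0.00906). Of these, the neutrophil difference at 3 h was lost without any one of control mouse 2 or 3 h mouse 4 (values -1.97 to -1.87, adjusted p 0.0559 to 0.0606), the monocyte difference at 3 h without any one of control mice 2 and 3 or 3 h mouse 4 (values -2.61 to -2.27, adjusted p 0.0529 to 0.119) and the monocyte difference at 72 h without any one of control mice 2 and 3 or 72 h mouse 1 (values -2.92 to -2.53, adjusted p 0.0922 to 0.105).

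In all, 13 of 72 differences of a member's change between 2 of the monocyte, neutrophil and HSC-like classes passed, each of which is named above. The difference of Spi1 between the neutrophil and HSC-like classes at 3 h was lost with library size as the only scaling (-0.25, adjusted p = 0.336), and that of Runx1 at 24 h with no filter on low counts (-0.42, adjusted p = 0.113). For Id2 in the monocyte against the HSC-like class, labels passed on without batch correction ended the call at 3 h (-2.31, adjusted p = 0.0533) and leaving out cells with Gzmb or Scin that at 72 h (-2.62, adjusted p = 0.132). Between the monocyte and neutrophil classes, 1 of 8 members differed at 3 h, with 0.323% of all genes, and edgeR called 0 at 24 h (0.0647% of genes) or 72 h (0.0539%). At an unadjusted p under 0.05 there were 0 and 1 members at these times. The member called at 3 h was Cebpb, and the changes of Irf8 differed by 0.04 (SE 0.26) at 3 h. Against HSC-like cells, all genes gave 3.45%, 1.53% and 1.09% for the monocyte class and 3.26%, 2.23% and 0.859% for the neutrophil class.

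The resting levels of the members over the 6 classes are a description, since the classes were made from these cells. Irf8 was highest in the monocyte progenitor-like class (301 ± 22.3 CPM (SD, n = 3)), followed by LMPP-like cells (198 ± 30.4 CPM (SD, n = 3)) and neutrophil progenitor-like cells (135 ± 25.1 CPM (SD, n = 4)), where the ranges of the last 2 overlapped. Below them came HSC-like cells (22.0 ± 17.8 CPM (SD, n = 4)), then MK (5.69 ± 0.642 CPM (SD, n = 3)) and erythroid progenitor-like cells (2.28 ± 0.542 CPM (SD, n = 3)), each apart from the next. Gfi1 was highest in the neutrophil class (71.5 ± 31.4 CPM (SD, n = 4)), which overlapped with the monocyte class (24.4 ± 6.35 CPM (SD, n = 3)) through control mouse 4. Cebpb was ordered from the neutrophil (226 ± 25.6 CPM (SD, n = 4)) and monocyte classes (185 ± 14.7 CPM (SD, n = 3)) to LMPP-like (78.3 ± 11.7 CPM (SD, n = 3)), HSC-like (63.8 ± 13.5 CPM (SD, n = 4)), MK (38.2 ± 3.91 CPM (SD, n = 3)) and erythroid progenitor-like cells (32.2 ± 8.24 CPM (SD, n = 3)), with overlap between LMPP-like and HSC-like cells and between the last 2. Spi1 had the same order of the neutrophil (325 ± 8.23 CPM (SD, n = 4)), monocyte (295 ± 7.70 CPM (SD, n = 3)) and LMPP-like classes (248.9 ± 19.5 CPM (SD, n = 3)), all without overlap, and was lowest in erythroid progenitor-like cells (18.4 ± 1.82 CPM (SD, n = 3)).

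Cebpa was about equal in the neutrophil (104 ± 15.02 CPM (SD, n = 4)) and monocyte classes (98.8 ± 10.8 CPM (SD, n = 3)), which overlapped, and lower in LMPP-like (67.2 ± 6.33 CPM (SD, n = 3)) and HSC-like cells (24.7 ± 9.52 CPM (SD, n = 4)). Klf4 ran from 24.4 ± 1.81 CPM (SD, n = 3) in the monocyte class to 0.331 ± 0.573 CPM (SD, n = 3) in the erythroid class, where every neighbour in the order overlapped. Runx1 showed a different order, with overlapping levels in the MK (125 ± 11.4 CPM (SD, n = 3)), LMPP-like, HSC-like and monocyte classes and lower levels in the neutrophil (57.0 ± 10.3 CPM (SD, n = 4)) and erythroid classes (29.1 ± 1.22 CPM (SD, n = 3)). Id2 stayed between 1.13 ± 0.152 CPM (SD, n = 3) and 6.17 ± 2.57 CPM (SD, n = 4) in all 6 classes, with overlap between every pair of neighbours.

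Genes with the most similar levels over classes and times were sought by Pearson correlation of mean log2 CPM. It was taken over 24 points (6 classes at 4 times) among 7411 genes, which share libraries and depth within a time point. Level differences between the classes enter r together with changes over time. A high r therefore does not show a shared change after IFNα. Irf8 was closest to Fam105a (r = 0.98), Cebpa (0.98) and Cd68 (0.98), and Cebpa to Tyrobp (0.99), Irf8 and F630028O10Rik (0.98). Spi1 was closest to Ncf4, Unc93b1 and Myo1f (each 0.99), of which Ncf4 encodes a subunit of the phagocyte oxidase. The genes nearest to Gfi1 were Adssl1, Edem2 (0.99 each) and Tcn2 (0.98), and those nearest to Runx1 were Bcl2 (0.97) and Klk8 (0.96). Cebpb was closest to Tcirg1 (0.94), Rnpep and Pyhin1 (0.93 each), Klf4 to Psap (0.86), BC005537 (0.84) and Ctsh (0.81), and Id2 to Mthfs, Ccdc88b (0.84 each) and Ddrgk1 (0.83).

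Genes that the members are known to regulate were read as a list of 14 receptors, granule proteins and monocyte genes. In the whole compartment 2 of 14 rose and 11 fell at 3 h, 1 rose and 12 fell at 24 h, and 12 fell at 72 h, beside 38.8%, 28.3% and 37.4% of all genes called, with median log2 changes of -0.65, -0.56 and -0.55 against -0.03, 0.00 and 0.02 over all genes. The class shares changed too, as given with Gfi1, so cell mix and RNA per cell cannot be told apart in these sums over the whole compartment. Elane, the neutrophil elastase gene, fell at 72 h from 5057 ± 931 to 2199 ± 325 CPM (SD, n = 4 and 4, log2 fold change -1.21, SE 0.13, adjusted p = 3.4e-07). Cd14, the lipopolysaccharide co-receptor, fell at 3 h from 2.99 ± 0.984 to 1.03 ± 0.746 CPM (SD, n = 4 and 4, log2 fold change -1.52, SE 0.34, adjusted p = 0.00103). Within the classes fewer changed, with 5, 4 and 4 of 14 lower and none higher in the neutrophil class at 3, 24 and 72 h, and 4, 5 and 2 of 13 lower and 3, 0 and 0 higher in the monocyte class. All genes gave 13.1%, 8.78% and 9.08% in the neutrophil class and 17.7%, 7.75% and 6.50% in the monocyte class. The neutrophil class also changed in mix, with cluster 7 at 38.9% of it in control and 17.6%, 19.5% and 18.7% later. No value of cluster 2 alone is given for this list, so mix and RNA per cell cannot be told apart in that class. The genes of this list were not left out of the clustering and label transfer. Their changes within a class can thus be limited by how its cells were labelled, which was not tested. In HSC-like cells 3 of 12 rose and 2 fell at 3 h, beside 19.6% of all genes called. There Csf2rb, the common β chain of the GM-CSF and IL-3 receptors, rose at 3 h from 9.93 ± 1.97 to 27.2 ± 8.42 CPM (SD, n = 4 and 4, log2 fold change 1.27, SE 0.26, adjusted p = 0.000419). Ctss, a lysosomal protease, rose at 3 h from 31.6 ± 11.1 to 77.8 ± 11.7 CPM (SD, n = 4 and 4, log2 fold change 1.09, SE 0.15, adjusted p = 7.66e-07) and fell at 72 h from 31.6 ± 11.1 to 15.6 ± 4.86 CPM (SD, n = 4 and 4, log2 fold change -1.25, SE 0.19, adjusted p = 8.82e-06). Mpo, the myeloperoxidase gene of granulocyte progenitors, rose in HSC-like cells at 72 h from 197 ± 59.4 to 297 ± 30.2 CPM (SD, n = 4 and 4, log2 fold change 0.48, SE 0.13, adjusted p = 0.0216), a call lost without any one of control mouse 1 or 72 h mice 2 and 4 (values 0.30 to 0.44, adjusted p 0.0646 to 0.204), with DESeq2 (0.52, adjusted p = 0.135) and with clustering on all variable genes (0.36, adjusted p = 0.111).

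Partners and relatives of the members formed a second list of 20 genes, of which 17 were tested in the whole compartment. At 3 h 3 rose and 7 fell, at 24 h 2 and 3, and at 72 h 4 and 4, beside the 38.8%, 28.3% and 37.4% of all genes called there, so the count at 24 h was near that background. As for the list before, cell mix and RNA per cell cannot be told apart in the sums over the whole compartment. The largest called fall was sought in the whole compartment and the HSC-like, monocyte and neutrophil classes. It was that of Cebpe, the C/EBP of late granulocyte maturation, in the whole compartment at 72 h from 73.6 ± 16.7 to 32.2 ± 4.01 CPM (SD, n = 4 and 4, log2 fold change -1.28, SE 0.15, adjusted p = 1.1e-06). Id1, another inhibitor of E proteins, rose in monocyte progenitor-like cells at 3 h from 11.4 ± 2.004 to 26.8 ± 16.1 CPM (SD, n = 3 and 4, log2 fold change 1.06, SE 0.28, adjusted p = 0.00621) and fell in the whole compartment at 72 h from 8.13 ± 1.41 to 4.93 ± 0.939 CPM (SD, n = 4 and 4, log2 fold change -0.81, SE 0.19, adjusted p = 0.00192). The rise was lost without any one of 3 h mice 1 and 2 (values 0.77 to 0.83, adjusted p 0.0581 to 0.0727). Egr1, a zinc finger factor that favours macrophage fate, rose in the whole compartment at 72 h from 16.4 ± 9.03 to 29.5 ± 15.6 CPM (SD, n = 4 and 4, log2 fold change 1.21, SE 0.25, adjusted p = 0.000549). In HSC-like cells at 3 h, Irf5 rose from 16.4 ± 4.73 to 23.0 ± 3.34 CPM (SD, n = 4 and 4, log2 fold change 0.71, SE 0.21, adjusted p = 0.0125) and Jun fell from 523 ± 218 to 279 ± 112 CPM (SD, n = 4 and 4, log2 fold change -0.74, SE 0.23, adjusted p = 0.0161). The former call was lost without any one of control mouse 1 or 3 h mouse 3 (values 0.57 to 0.58, adjusted p 0.0848 to 0.116), and the latter without any one of control mouse 3 or 3 h mice 1, 2 and 3 (values -0.68 to -0.56, adjusted p 0.0544 to 0.132). DESeq2 called neither (0.69, adjusted p = 0.0658 for Irf5 and -0.90, adjusted p = 0.0691 for Jun), and library size as the only scaling also ended the call of Irf5 (0.49, adjusted p = 0.0679). The monocyte class had 1 rise and 2 falls at 3 h, and 1 rise at 72 h among 15 tested, and the neutrophil class had a single fall, at 24 h, among 14. All genes gave 17.7% at 3 h and 6.50% at 72 h in the monocyte class and 8.78% at 24 h in the neutrophil class. The counts of the monocyte and neutrophil classes were thus near the background. In HSC-like cells 2 of 14 rose and 3 fell at 3 h, 1 fell at 24 h, and 1 rose and 1 fell at 72 h. All genes gave 19.6%, 5.41% and 5.29% there. In LMPP-like cells 1 of 17 rose and 4 fell at 3 h, 2 rose at 24 h and 0 were called at 72 h. All genes gave 16.4%, 7.67% and 5.67% in that class.

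Factors of other lineages were read as another list, of 18 genes. They too were not left out of the clustering and label transfer, so labelling can limit their changes within a class. In the whole compartment 9 rose and 1 fell at 3 h, 8 and 1 at 24 h, and 12 rose at 72 h, where 38.8%, 28.3% and 37.4% of all genes were called. In these sums over the whole compartment, the changed class shares and a change of RNA per cell cannot be told apart. Mecom, which maintains stem cells, rose at 3 h from 12.5 ± 2.08 to 26.5 ± 2.41 CPM (SD, n = 4 and 4, log2 fold change 1.17, SE 0.11, adjusted p = 8.63e-09), and Mycn rose at 3 h from 23.1 ± 6.73 to 39.8 ± 9.79 CPM (SD, n = 4 and 4, log2 fold change 0.97, SE 0.15, adjusted p = 1.99e-05). Klf1, the erythroid Krüppel-like factor, fell at 24 h from 43.7 ± 5.68 to 32.2 ± 6.55 CPM (SD, n = 4 and 4, log2 fold change -0.43, SE 0.14, adjusted p = 0.0242), a call lost without any one of control mouse 3 or 24 h mice 1 and 2 (values -0.39 to -0.31, adjusted p 0.061 to 0.151) and with DESeq2 (-0.43, adjusted p = 0.127). In HSC-like cells Hlf, a stem cell factor, fell at 3 h from 292 ± 22.7 to 212 ± 35.2 CPM (SD, n = 4 and 4, log2 fold change -0.46, SE 0.09, adjusted p = 0.000137) and Satb1, a chromatin organizer of lymphoid priming, at 24 h from 47.0 ± 27.9 to 36.2 ± 2.04 CPM (SD, n = 4 and 4, log2 fold change -0.64, SE 0.17, adjusted p = 0.0197), the latter lost without any one of control mice 2 and 3 or 24 h mice 2 and 4 (values -0.65 to -0.27, adjusted p 0.0522 to 0.551) and with DESeq2 (-0.59, adjusted p = 0.0732). The HSC-like class had 2 rises and 3 falls at 3 h, 0 and 2 at 24 h and 1 and 1 at 72 h among 16 tested. All genes gave 19.6%, 5.41% and 5.29% there. Among 13 tested in the monocyte class, 0 rose and 0 fell at each time, beside 17.7%, 7.75% and 6.50% of all genes called. In the neutrophil class 1, 2 and 1 of 13 rose at the 3 times, beside 13.1%, 8.78% and 9.08% of all genes. The gene that rose there at 3 h was Tcf4, an E protein that ID2 can bind, from 29.4 ± 11.4 to 41.2 ± 6.84 CPM (SD, n = 4 and 4, log2 fold change 0.77, SE 0.17, adjusted p = 0.000938). The part of the changed mix of clusters 2 and 7 of this class in that rise was not tested.

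The interferon-stimulated list gives the time frame of the treatment. In the whole compartment 12 of 12 rose at 3 and 24 h, and 2 fell at 72 h. At 3 h in monocyte progenitor-like cells Ifit1 rose from 0.383 ± 0.0558 to 200.4 ± 48.7 CPM (SD, n = 3 and 4, log2 fold change 8.79, SE 0.32, adjusted p = 4.55e-22), and Ifit3, with no UMI in the controls, was at 50.7 ± 16.0 CPM (SD, n = 4). Usp18, which limits interferon signalling, rose in neutrophil progenitor-like cells from 1.65 ± 1.37 to 192 ± 59.5 CPM (SD, n = 4 and 4, log2 fold change 7.38, SE 0.27, adjusted p = 4.88e-23). At 72 h HSC-like cells had 6 of 12 below control, among them Isg15 from 55.7 ± 26.6 to 27.0 ± 1.25 CPM (SD, n = 4 and 4, log2 fold change -1.26, SE 0.17, adjusted p = 2.54e-06), Ifit1 from 15.6 ± 5.51 to 6.43 ± 1.76 CPM (SD, n = 4 and 4, log2 fold change -1.48, SE 0.26, adjusted p = 0.000128) and Ifit3 from 9.57 ± 5.96 to 0.820 ± 0.659 CPM (SD, n = 4 and 4, log2 fold change -3.61, SE 0.49, adjusted p = 1.94e-06). LMPP-like cells also had 5 of 12 below control at 72 h, with a median log2 change of -0.72 over the list against -0.80 in HSC-like cells. All genes gave 5.67% and 5.29% in these classes at 72 h. The neutrophil class, with 12, 10 and 1 of 12 higher, and the monocyte class, with 12, 11 and 0, showed no fall. The erythroid and MK progenitor-like classes had 0 of 12 lower at 72 h. Of the handling list, Atf3 rose in the whole compartment at 3 h from 0.0809 ± 0.0541 to 1.94 ± 0.911 CPM (SD, n = 4 and 4, log2 fold change 4.03, SE 0.49, adjusted p = 6.58e-07), Nr4a1 at 72 h from 0.701 ± 0.238 to 2.13 ± 2.43 CPM (SD, n = 4 and 4, log2 fold change 1.65, SE 0.56, adjusted p = 0.0244), and Hspa1a fell in neutrophil progenitor-like cells at 3 h from 35.3 ± 27.5 to 0.939 ± 1.16 CPM (SD, n = 4 and 4, log2 fold change -4.91, SE 1.28, adjusted p = 0.00601). The call of Nr4a1 was lost without any one of control mice 2 and 3 or 72 h mouse 4 (values 0.45 to 1.67, adjusted p 0.0518 to 0.419) and with each time point fitted alone (1.64, adjusted p = 0.0556).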

How the data were processed

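Droplet libraries (10x Genomics 3' v3.1) of LK cells with added HSCs were made from 16 mice, with 4 hashed mice per library. The authors aligned reads to mm10 with Cell Ranger 3.1.0, and the deposited matrices hold raw UMI counts per gene and barcode; Seurat is also named in the submitters' processing notes. Each barcode carries a deposited hashtag call, which removed 67 to 169 multiplets per library and 166 to 422 negatives. Kept cells had at most 5% mitochondrial UMIs and at least 700 genes. Between libraries at most 1 kept barcode was shared. Multiplets of the same hashtag remained in the data.

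Control cells were clustered in Scanpy 1.11.5 (500 variable genes, Leiden resolution 0.8) without the members, their partners, interferon-stimulated and handling genes. The lists of regulated genes and of factors of other lineages were not left out. Labels were passed to the other libraries over 3403 genes, the joined sets of 2000 variable genes per library, with mutual nearest neighbour correction. Names come from marker lists, so classes are rebuilt and can differ from the study's. UMIs were summed per mouse and class with at least 10 cells and tested with edgeR 4.0.16 in R 4.3.3 (filterByExpr, TMM scaling, quasi-likelihood test, the summed mice of all time points fitted together, Benjamini-Hochberg adjustment over all genes tested). Calls are adjusted p under 0.05. Differences of changes between classes were tested as interaction terms with the mouse as a block. In simulated counts the share of 4-fold changes recovered was 87 to 97% over the populations and of 2-fold changes 65 to 93%. Of the simulated calls, 4.97 to 6.59% were false. Only 200 genes were changed there, at 3 h, fewer than were called in the data. Genes with counts as low as those of Klf4 and Id2 were not assessed apart.

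The members and gene lists were chosen with earlier results of these data known. Beyond the members, the genes named from each list were those with the largest called changes in each direction. These changes were sought in the whole compartment and the HSC-like, monocyte and neutrophil classes, and not in the LMPP-like, erythroid or MK classes. Also named were the 3 genes most like each member. For Runx1, 1 of these is not reported here. Each gene was placed by the GENCODE vM21 annotation (GRCm38). Motifs were counted in RefSeq promoter windows of GRCm38.p6. Alternatives were DESeq2 1.42.0, a likelihood ratio test, library size scaling, no count filter, each time point alone, other labels and leaving out each mouse. Intervals and limits for counts of 0 cover counting error only.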

Additional observations from a re-analysis of the deposited data

Results flagged for a closer look

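In groups of 4 mice, the highest or lowest mouse stood far from the other mice in 9 of 162 groups (5.56%), where chance alone gives about 5%. Spi1 in the whole compartment was at 162 CPM (2415 UMIs) in 24 h mouse 3, against 179.7 to 183 CPM in the other mice of the group. Spi1 in the HSC-like class was at 45.9 CPM (6 UMIs) in control mouse 4, against 142 to 158 CPM in the other mice of the group. Gfi1 in the HSC-like class was at 17.1 CPM (41 UMIs) in 24 h mouse 3, against 8.21 to 9.68 CPM in the other mice of the group. Irf8 in the HSC-like class was at 43.3 CPM (35 UMIs) in 3 h mouse 1, against 11.9 to 16.7 CPM in the other mice of the group. Spi1 in the monocyte progenitor-like class was at 260.5 CPM (189 UMIs) in 72 h mouse 4, against 282 to 284 CPM in the other mice of the group. Cebpa in the monocyte progenitor-like class was at 78.9 CPM (75 UMIs) in 3 h mouse 4, against 90.2 to 90.5 CPM in the other mice of the group. Spi1 in the neutrophil progenitor-like class was at 282 CPM (1037 UMIs) in 24 h mouse 4, against 310.4 to 316 CPM in the other mice of the group. Gfi1 in the neutrophil progenitor-like class was at 24.97 CPM (7 UMIs) in control mouse 4, against 82.1 to 93.2 CPM in the other mice of the group. Cebpa in the MK progenitor-like class was at 7.17 CPM (12 UMIs) in 72 h mouse 1, against 12.9 to 13.9 CPM in the other mice of the group.

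The change of a member differed between 2 classes in 13 of 72 tested differences, each given as the first class minus the second on the log2 scale. At 3, 24 and 72 h, 0.323%, 0.0647% and 0.0539% of all genes differed between the monocyte and neutrophil classes. Against HSC-like cells these shares were 3.45%, 1.53% and 1.09% for the monocyte class and 3.26%, 2.23% and 0.859% for the neutrophil class. For Cebpb, the monocyte progenitor-like minus neutrophil progenitor-like value at 3 h was 0.79 (adjusted p = 3.91e-05), the monocyte progenitor-like minus HSC-like value at 3 h was -0.60 (adjusted p = 0.00173) and the neutrophil progenitor-like minus HSC-like value at 3 h was -1.40 (adjusted p = 6.04e-14). For Klf4, the monocyte progenitor-like minus HSC-like value at 3 h was -3.39 (adjusted p = 5.46e-05) and the neutrophil progenitor-like minus HSC-like value at 3 h was -2.34 (adjusted p = 0.00591). For Id2, the monocyte progenitor-like minus HSC-like value at 3 h was -2.75 (adjusted p = 0.0116), the monocyte progenitor-like minus HSC-like value at 24 h was -3.34 (adjusted p = 0.00029), the monocyte progenitor-like minus HSC-like value at 72 h was -3.17 (adjusted p = 0.00906), the neutrophil progenitor-like minus HSC-like value at 3 h was -2.28 (adjusted p = 0.00524), the neutrophil progenitor-like minus HSC-like value at 24 h was -3.05 (adjusted p = 1.22e-06) and the neutrophil progenitor-like minus HSC-like value at 72 h was -3.29 (adjusted p = 6.09e-05). For Runx1, the monocyte progenitor-like minus HSC-like value at 24 h was -0.42 (adjusted p = 0.0352). For Spi1, the neutrophil progenitor-like minus HSC-like value at 3 h was -0.39 (adjusted p = 0.0409).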

How the results depend on the processing

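Of 63 called values of the members, 38 were called in every setting that gave them a value and without each mouse, 20 were lost without some mouse and 0 were reversed. The 13 differences between classes were not fitted with DESeq2, with clustering on all variable genes or with each time point alone. Leaving out a mouse that had too few cells in a class counted as no change for that class. With DESeq2, 19, 10 and 8 values were called at 3, 24 and 72 h in place of 20, 19 and 11, where DESeq2 gave no adjusted p for 5 called values over all times. Without control replicate 2, 8 differences between classes in place of 13 passed, and leaving out each mouse gave 8 to 14. Leaving out 1 mouse gave 16 to 22 calls at 3 h, 13 to 20 at 24 h and 9 to 12 at 72 h. The settings other than DESeq2 gave 19 to 27, 18 to 21 and 10 to 14 calls at these times and 12 to 15 differences. The fits of clusters 2 and 7 alone and without cells carrying Gzmb or Scin were chosen after seeing the data. The causes were not tested. No pairing of mice across time points was possible because the labels give no replicate numbers, and hashtag numbers name different mice at each time. Classes of the same mouse were paired in the differences between classes. Depth limits Klf4 and Id2, which often rest on under 10 UMIs per mouse and class.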

Other observations

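Control cells outside the 6 classes also carried the members, given here as pooled values with no test. Cluster 13 (35 control cells, led by Cd74, H2-Aa and Lgals3) had Irf8 at 876 CPM (95% Poisson interval 792 to 965), Id2 at 503 CPM (95% Poisson interval 440.3 to 572), Klf4 at 270.1 CPM (95% Poisson interval 225 to 322) and Cebpb at 516 CPM (95% Poisson interval 453 to 586). In the 6, 5 and 6 cells of this cluster at 3, 24 and 72 h, Irf8 was at 913 CPM (95% Poisson interval 585 to 1358), 1572 CPM (95% Poisson interval 1319 to 1860.0) and 1562 CPM (95% Poisson interval 1289.9 to 1875). In the same cells Id2 was at 1522, 1260 and 747 CPM, Klf4 at 0, 116 and 109 CPM and Cebpb at 0, 11.6 and 27.2 CPM. The upper limit of the interval was 140 CPM for each value of 0. Whether these few cells are of the same type as those in control was not tested. Cluster 12 (60 control cells), led by the basophil and eosinophil genes Prss34, Prg2 and Mcpt8, had Cebpa at 233 CPM (95% Poisson interval 206 to 262) and Runx1 at 263 CPM (95% Poisson interval 235 to 294), with Irf8 at 5.86 CPM (95% Poisson interval 2.36 to 12.1). Its 14 cells at 3 h had no Irf8 UMI (upper limit of the interval 21.2 CPM), and Irf8 was at 34.9 CPM (95% Poisson interval 24.96 to 47.6) in 55 cells at 24 h and 2.496 CPM (95% Poisson interval 0.302 to 9.02) in 47 cells at 72 h. In the unnamed cluster 6 (183 control cells, led by Gzmb and Scin), Id2 was at 27.2 CPM (95% Poisson interval 20.3 to 35.7) in control, 35.5 CPM (95% Poisson interval 26.1 to 47.0) at 3 h, 44.5 CPM (95% Poisson interval 36.8 to 53.2) at 24 h and 44.5 CPM (95% Poisson interval 36.7 to 53.4) at 72 h. Cluster 9 (163 control cells), led by the mitotic genes Nusap1, Prc1 and Cenpf, had Irf8 at 32.6 CPM (95% Poisson interval 26.9 to 39.2) in control, 7.82 CPM (95% Poisson interval 4.17 to 13.4) at 3 h, 15.9 CPM (95% Poisson interval 12.9 to 19.4) at 24 h and 15.5 CPM (95% Poisson interval 11.1 to 21.0) at 72 h. These intervals cover counting error only.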
